A study of Mus musculus with 48 samples.

Results

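Genes of the interferon response and of class I antigen presentation were examined in mouse hippocampus, the forebrain region that forms spatial and episodic memories. The set was a list of 37 genes chosen by name, and all 37 had a row among the 57126 gene identifiers counted. By role they were 3 transcription factors, 5 sensors of foreign or misplaced nucleic acid, 20 antiviral effectors, 3 genes of ISG15 conjugation and 6 of antigen presentation. Counts were high enough for testing in 33 of them, while Zbp1, Oas1a, Oas2 and Mx1 held only 68, 276, 188 and 43 counts over all 48 libraries and were left out of the tests. Each library came from 1 mouse of the outbred CD-1 stock, sampled at 2 months of age. The 8 groups of 6 animals were male and female offspring of dams that drank water with manganese (Mn, 2 g/L), lead (Pb, 100 ppm), both metals (Pb+Mn), or neither metal (control). Dosing of the dams began 2 weeks before mating and ended when the pups were weaned at postnatal day 21, a total of 8 weeks. The metals thus reached the offspring through their mothers, and no group carried a genetic change. The labels do not say which animals shared a litter, and each p-value here reflects variation among animals, not among litters.

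Interferons are secreted proteins that warn cells of infection. Type I interferons bind a receptor on the cell surface, its kinases activate STAT2, which joins IRF9 in a complex that enters the nucleus and switches on a large set of antiviral genes. One of those genes encodes IRF7, which drives further interferon production, so the response can amplify itself. Type II interferon, made mainly by T and NK cells, is known for inducing guanylate-binding proteins, immunity-related GTPases and the machinery of antigen presentation. In the brain, microglia, endothelium, border macrophages and choroid plexus can all respond, and low steady levels of these transcripts are usual in healthy tissue.

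The interferon-activated complex recognizes a promoter element with the core GAAANNGAAA. This core was searched on both strands from 250 bases before to 50 bases after each transcription start in RefSeq promoters (build GRCm38.p6), and overlapping matches were counted separately. Of the 29 listed genes with a promoter entry, 13 held at least 1 match (44.8%). Among the tested ones it was 12 of 28 (42.9%), against 433 of all 11833 tested genes with an entry (3.66%). The 5 stretches below are shown because they carry that element in the most variable of the listed genes with a match. Capitals mark the matches; a match on the opposite strand appears as the reverse complement of the core.
Ifit3 promoter: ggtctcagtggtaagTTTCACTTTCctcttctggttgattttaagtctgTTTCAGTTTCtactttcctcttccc
Ifit1 promoter: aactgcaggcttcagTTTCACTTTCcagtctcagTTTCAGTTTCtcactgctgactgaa
Isg15 promoter: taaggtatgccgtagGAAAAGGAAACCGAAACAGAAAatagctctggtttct
Bst2 promoter: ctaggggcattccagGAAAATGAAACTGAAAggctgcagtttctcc
Rsad2 promoter: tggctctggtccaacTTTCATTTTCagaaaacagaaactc
These stretches lie at chr19:34583358-34583431 (plus strand), chr19:34640770-34640828 (plus strand), chr4:156200860-156200911 (minus strand), chr8:71537572-71537617 (minus strand) and chr12:26456548-26456587 (minus strand) of GRCm38.p6, each printed on its gene's strand. All lie wholly upstream of the start. Isg15 held 3 overlapping matches between 78 and 57 bases upstream, and Bst2 held 2 between 130 and 115 bases upstream. The sensors Ifih1, Ddx58 and Eif2ak2 each held a match, as did Stat2, Oas1a, Ifitm3, Trim30a and B2m. Among the genes with no match in this window were Irf7, Irf9, H2-K1 and H2-D1, which says only that these letters do not occur there.

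Each library held between 6273586 and 27639841 counts. Levels are given as CPM, a gene's count relative to its library's total on a fixed scale, adjusted between libraries with TMM (trimmed mean of M-values), a factor computed from the bulk of genes. They are not divided by transcript length, so levels are compared between animals and not between genes. The Y-linked gene Ddx3y lay between 25.04 and 40.6 CPM in the 24 males and at or under 0.0714 CPM in the 24 females. Xist, expressed from an inactive X chromosome, read 24.4 CPM in male control 4 and 0.0684 CPM in female Pb 4, both unlike the rest of their sex. In whole tissue, fewer cells of a type and less RNA per cell cannot be told apart.

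A score summarized the genes in each library: the mean over the 33 tested genes of log2 CPM minus that gene's median over the 48 libraries. Female control 5 scored 1.52. The other 47 libraries lay between -0.48 and 0.43, the next highest being male Pb 2 at 0.43 and female Pb+Mn 1 at 0.41. The lowest were female Pb 5 at -0.48, male control 6 at -0.44 and male Mn 3 at -0.34. Within groups, and with female control 5 left out, scores spread with an SD of 0.193, so 1 animal stood several of these SDs above all others while the groups overlapped throughout.

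**Figure D1:**
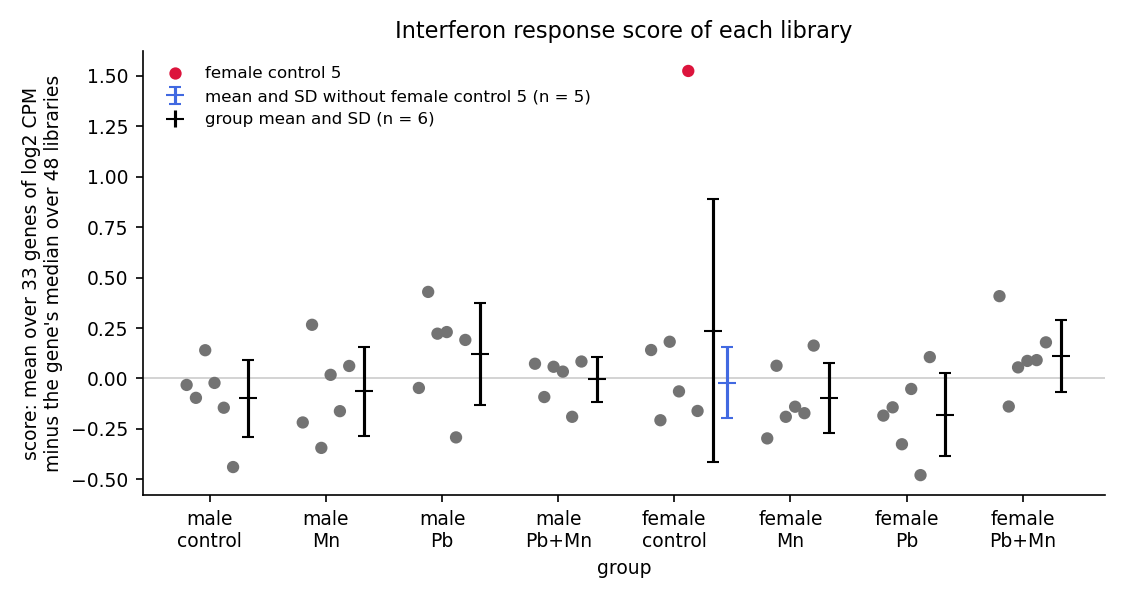
Score of each of the 48 libraries (y axis, mean log2 CPM over 33 genes relative to each gene's median) by group (x axis), with group mean and SD in black and the female control mean and SD without female control 5 in blue. Female control 5, in red, lies at 1.52, above the range of -0.48 to 0.43 that holds the other 47 libraries.

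The male groups averaged -0.10 ± 0.19 (control), -0.06 ± 0.22 (Mn), 0.12 ± 0.25 (Pb) and -0.01 ± 0.11 (Pb+Mn) (SD, n = 6 each). In females the means were 0.24 ± 0.65 (control), -0.10 ± 0.17 (Mn), -0.18 ± 0.20 (Pb) and 0.11 ± 0.18 (Pb+Mn) (SD, n = 6 each). Without female control 5, the female control mean was -0.02 ± 0.18 (SD, n = 5), inside the range of the other group means. The library with the high score was thus an animal that received no metal, and it set both the mean and the spread of the group against which the exposed females were read.

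In female control 5 all 33 tested genes lay above their median over the 48 libraries, and 28 of them were at their highest there. The same library held the highest value of 4.80% of all tested genes. Genes at least 2-fold above the median of the other 47 libraries and highest in female control 5 numbered 255 of 16360 (1.56%), and 22 of the 33 tested genes were among them. Because this animal was singled out for these values, its levels are given as a description without a test. It was also shallow, with 8185140 counts (rank 47 of 48), and the counts behind low genes are given with them.

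The transcription factors were all at their highest in this animal. Irf7, the factor that amplifies the response, read 17.4 CPM (151 counts) in female control 5, while the other 47 libraries ranged from 0.263 to 3.84 CPM around a median of 1.40. That is 12.4-fold above the median, with no overlap. Irf9, the DNA-binding part of the activated complex, read 23.04 CPM against 3.88 to 8.18 CPM elsewhere, a ratio of 3.75 to the median. Stat2, its partner, moved least, at 25.6 CPM against 12.6 to 23.6 CPM (1.37-fold).

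Among the sensors, Ifih1 (MDA5, a detector of long double-stranded RNA) read 6.57 CPM in female control 5 against 1.26 to 3.97 CPM elsewhere, 2.65-fold above the median. Ddx58 (RIG-I, which detects viral RNA ends) stood 2.02-fold above the median, Dhx58 (LGP2, a relative that tunes both) 2.41-fold and Eif2ak2 (PKR, which halts translation on double-stranded RNA) 1.77-fold. Zbp1, a sensor of left-handed nucleic acid, held 10 counts in female control 5 (1.15 CPM) and at most 0.374 CPM in any other library. All 5 sensors were thus highest in the same animal. The 4 tested ones stood out by smaller ratios than Irf7, while the ratio of Zbp1 was 17.2 on its few counts.

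Antiviral effectors gave the largest number of high values: 14 of the 17 tested were highest in female control 5. Lgals3bp, a secreted glycoprotein, read 90.1 CPM there (782 counts) against 6.33 to 31.9 CPM in the other libraries, 7.71-fold above their median. Bst2 (tetherin, which holds budding virions on the cell) read 18.2 CPM against 1.29 to 9.22 CPM (6.44-fold), and Ifit1, which binds foreign RNA caps, read 8.87 CPM against 0.165 to 2.41 CPM (6.98-fold). Neither range reached the value of female control 5.

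Ifit3, the partner of Ifit1, read 16.6 CPM in female control 5 against 0.293 to 8.48 CPM elsewhere (5.36-fold). Ifi44 read 2.76 CPM against at most 1.12 CPM (7.52-fold, 24 counts), and Rtp4, a chaperone that also limits viruses, read 8.06 CPM against at most 2.53 CPM (6.57-fold). Oasl2, of the oligoadenylate synthetase family, stood 5.25-fold, Ifitm3, which blocks viral fusion, 3.98-fold, and Parp14, a mono-ADP-ribosyltransferase, 3.67-fold above the median of the others. Rsad2 (viperin, which makes a chain-terminating nucleotide) was nearer to the rest, at 2.65 CPM against 0.0906 to 2.10 CPM elsewhere (2.43-fold, 23 counts). Oas1a and Oas2, too low to be tested, held 17 and 13 counts in female control 5 and were highest there, whereas Mx1 held none.

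The 3 effectors that were not highest in this animal were Ifit2 at rank 13 of 48, Xaf1 at rank 11 and Ifi35 at rank 2. Reads of Ifit3, Oas1a, Trim30a and Ifi27 could be shared with near-identical neighbours, since the settings for multi-mapping reads are not given in the sources used here, and their values are uncertain to that extent.

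Isg15, a ubiquitin-like protein attached to other proteins during the response, read 6.22 CPM in female control 5 (54 counts) against 0.344 to 3.54 CPM in the other libraries, 6.0-fold above their median. Usp18, which removes ISG15 and dampens receptor signalling, read 3.69 CPM (32 counts) against 0 to 1.22 CPM, 6.01-fold above the median. Herc6, the mouse ligase for ISG15, stood 1.82-fold above the median. This class scored 1.85 in female control 5, between the transcription factors at 1.95 and the effectors at 1.73, with sensors at 1.07.

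Antigen presentation had the smallest class score in this animal, 0.89, which was still the highest of 48 libraries. H2-K1, a classical class I heavy chain, read 51.8 CPM in female control 5 against 9.73 to 32.9 CPM elsewhere (2.69-fold), and B2m, the light chain of every class I molecule, read 100.1 CPM against 50.3 to 89.2 CPM (1.59-fold). Tap1, a subunit of the peptide transporter, stood 2.26-fold and Psmb9, an immunoproteasome subunit, 2.28-fold above the median. H2-D1 was only ninth at 101.5 CPM, and Psmb8 was at rank 3. H2-K1 and H2-D1 are close in sequence, and shared reads could move counts between them.

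**Figure D2:**
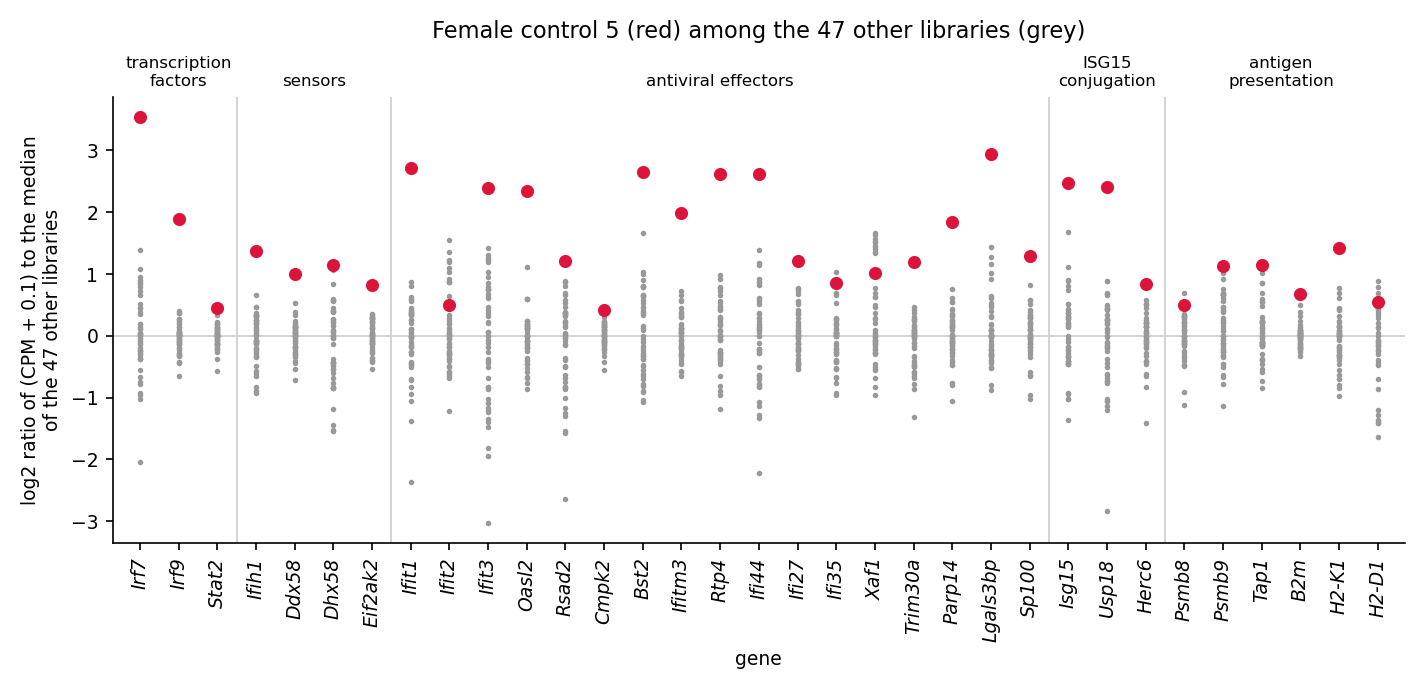
Each tested gene (x axis, by role) in every library, as the log2 ratio of CPM plus 0.1 to the median of the 47 libraries other than female control 5 (y axis). Red points are female control 5 and grey points the other 47 libraries, and the red point is the highest for 28 of 33 genes.

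Genes beside the listed ones were read in the same animal. Of 39 other tested interferon-induced genes, 16 were at their highest in female control 5, and their score of 1.10 was the highest of 48 libraries. Genes named here after their values were seen include Ifi27l2a at 3.80 CPM against at most 1.25 CPM elsewhere, Slfn8 at 3.46 against 1.504 CPM, and Rnf213 at 23.8 against 12.2 CPM. Other class I genes followed in part, with 4 of 16 at their highest (H2-Q4, H2-T22, H2-T23 and H2-T24). The steps before the response did not stand apart by score: receptors and their kinases ranked 24 of 48, and the upstream sensing and signalling genes ranked 25. By summed CPM the upstream genes were low, at 250.4 CPM (rank 47) against a median of 304.5 CPM elsewhere. Single genes differed, with Traf3 at rank 48 and Mavs at rank 2. None of the 11 listed interferon genes had a count in female control 5, and 8 of them had no count in any library. The other 3 summed to at most 0.161 CPM in any library.

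Markers of other cell types in female control 5 were mixed. The 12 microglia markers summed to 414.8 CPM, rank 41 of 48, and their score of -0.26 ranked 47. T and NK cell markers summed to 2.42 CPM (21 counts, rank 9 of 48) against 0.667 to 5.35 CPM elsewhere. The other female controls lay between 1.09 and 2.10 CPM. In this shallow library 8 of the 14 markers had no count. Border macrophage markers ranked sixth by score, choroid plexus and ependyma seventh, and meninges second (153.1 CPM against at most 155.9 CPM). Reactive glia and cytokine genes also ranked second by score (0.56), with Vim and Itgax at their highest, while astrocyte markers summed to 6214 CPM, the lowest of 48. Genes of the habenula, a neighbouring brain region, chosen after their values were seen (Pou4f1, Gpr151, Chrnb4, Chrna3, Chat and Slc5a7), summed to 109.3 CPM in female control 5, the highest of 48. The next libraries for those genes were female Pb 6 at 55.6 CPM and male control 3 at 55.3 CPM, with interferon scores of 0.11 and 0.14. Then came female Pb+Mn 4 at 49.98 CPM, with a score of 0.09, and female Pb 3 at 49.6 CPM, with a score of -0.33. The part of any of these tissue markers in the interferon result was not tested.

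Away from that animal, group medians of the named genes lay close together. Median Irf9 ran from 5.54 CPM in female Pb to 6.47 CPM in male Pb, and median Stat2 from 17.8 CPM in male controls to 19.8 CPM in female Pb+Mn. Low effectors spread more: median Ifi44 ran from 0.252 CPM in female Pb to 0.561 CPM in female Pb+Mn, and median Rsad2 from 0.724 CPM in male Mn to 1.44 CPM in female Pb+Mn, beside 1.42 CPM in the female controls without female control 5. Median Bst2 was lowest in female Mn at 2.19 CPM and highest in male Pb at 4.66 CPM. In male Pb it ranged from 1.32 to 9.22 CPM and in male controls from 1.70 to 5.03 CPM (median 2.93), with a log2 fold change of 0.75 ± 0.42 (SE, edgeR adjusted p = 0.444). These groups overlapped, and the top of male Pb was the single library male Pb 2.

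Median Ifit1 ran from 1.05 CPM in male Mn to 1.68 CPM in the female controls without female control 5. Median Isg15 ran from 0.887 CPM in female Mn to 1.32 CPM in male Pb, and median Usp18 from 0.469 CPM in male controls to 0.903 CPM in female Pb+Mn. For Ifit1, Isg15 and Usp18 every group overlapped every other. Among class I genes, median H2-K1 ran from 16.1 CPM in female Pb to 21.8 CPM in female Pb+Mn and median H2-D1 from 61.8 CPM in female Pb to 82.2 CPM in male Pb+Mn, with ranges that again overlapped throughout.

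The exposures were then compared with same-sex controls in 1 edgeR quasi-likelihood fit of all 48 libraries, with Benjamini-Hochberg adjustment over the 16360 tested genes and a threshold of 0.05. None of the 33 genes passed in any of the 14 comparisons, and none passed with DESeq2, which gave no adjusted p for 21 of them in male Pb+Mn against male Pb. Over all tested genes the share called by edgeR was 0% in 13 comparisons and 0.0428% (7 genes) in female against male controls. DESeq2 called 326 genes in male Pb+Mn against male Pb and 6 in female against male controls, none of them listed. The smallest adjusted p of a listed gene was 0.154 (Ifi35, male Pb+Mn against male Pb, edgeR). Counts below are therefore of listed genes with p under 0.05 before adjustment, and comparisons that share a control group share its animals. Those from the edgeR fit of all 48 libraries are read beside the same share of all genes. DESeq2, fits of only the groups compared and fits without 1 library have shares of their own, not all given here.

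In females, the listed genes leaned lower after each metal. Female Pb had 14 of 33 at an unadjusted p under 0.05, all 14 lower than control, against 2.18% of all tested genes, with a median log2 fold change of -0.40 (0.01 over all genes). Female Mn had 10, all lower, against 2.62% of all genes, with a median of -0.27. Female Pb+Mn had 3, all lower, against 1.64%, with a median of -0.11. DESeq2 counted 13, 12 and 3. Fits of only the groups compared counted fewer: 5 of 30 in female Pb, 5 of 31 in female Mn (1 of them higher) and 0 of 32 in female Pb+Mn. The share of all genes in DESeq2 and in those smaller fits is not given here. Beside female control 5, single libraries moved each count from the fit of all groups. Female Mn ran from 6 without female Mn 3 (2.14% of all genes) to 14 without female control 4 (2.38%). Female Pb ran from 10 without female Pb 5 (2.93% of all genes) to 15 without female control 2 (3.09%), 4 (1.81%) or 6 (1.88%). Female Pb+Mn had 6 without female control 2 (1.87% of all genes), 1 without female Pb+Mn 4 and 0 without female Pb+Mn 2. Across roles, the 14 genes in female Pb were 2 transcription factors, 2 sensors, 8 effectors, Usp18 and B2m.

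Without female control 5 these counts fell to 3 of 33 in female Pb (1.58% of all genes), 2 in female Mn (1.93%) and 2 in female Pb+Mn (2.39%), the last 2 now higher than control. The medians became -0.12, -0.01 and 0.18. Genes leaning higher went from 3 to 10 in female Pb, from 3 to 15 in female Mn and from 9 to 24 in female Pb+Mn. By score, the female Mn difference went from -0.33 to -0.07, so that 77.8% of it came from this 1 animal. The female Pb difference went from -0.41 to -0.16, a share of 62%, and the female Pb+Mn difference went from -0.12 to 0.14, a change larger than the difference itself (211%) that turned its sign.

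**Figure D3:**
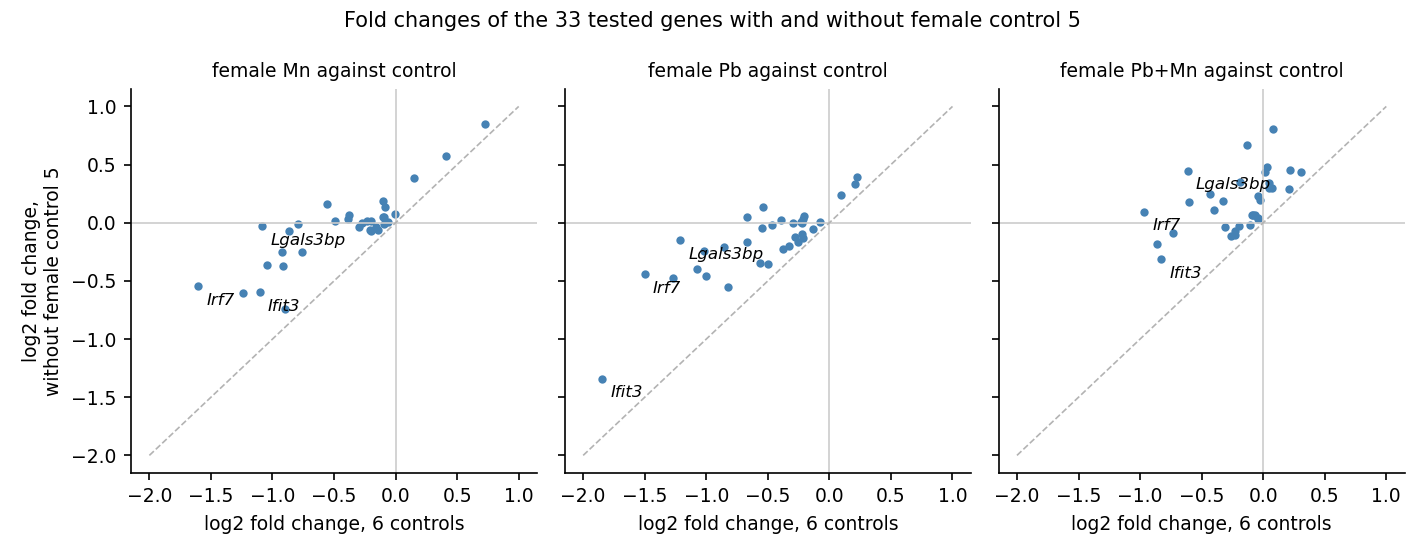
Log2 fold change of each of the 33 tested genes in exposed against control females, with all 6 controls (x axis) and without female control 5 (y axis), 1 panel per exposure. The dashed line marks equal values. All 33 points lie above it in each panel, and Irf7 in female Pb+Mn moves from -0.97 to 0.10.

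Irf7, the gene with the lowest p in female Mn, gives the values behind these shifts. It ranged from 0.921 to 17.4 CPM in female controls (median 2.03), and from 0.921 to 3.84 CPM (median 1.42) once female control 5 was set aside. Female Mn ranged from 0.688 to 1.56 CPM (median 1.30), female Pb from 0.794 to 2.702 CPM and female Pb+Mn from 1.36 to 3.08 CPM (median 1.64). Every exposed group overlapped the 5 remaining controls. The log2 fold change in female Mn was -1.61 ± 0.47 (SE, edgeR adjusted p = 1) and became -0.55 ± 0.35 without female control 5. In female Pb it went from -1.501 ± 0.47 to -0.44 ± 0.35, and in female Pb+Mn from -0.97 ± 0.44 to 0.10 ± 0.33. Lgals3bp behaved alike in female Pb, with -1.21 ± 0.41 becoming -0.15 ± 0.31.

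A smaller group of genes in female Pb depended less on that animal. Ifih1 read 1.26 to 2.29 CPM in female Pb (median 1.69) and 1.97 to 2.99 CPM in the 5 other female controls (median 2.36), so the groups overlapped, with 3 Pb animals below every control. Its log2 fold change was -0.82 ± 0.24 with all controls and -0.55 ± 0.22 without female control 5 (SE, edgeR adjusted p = 1 in both). Eif2ak2 read 6.40 to 7.88 CPM in female Pb (median 6.92) against 5.95 to 11.1 CPM in the 5 controls (median 9.37). Its log2 fold change went from -0.50 ± 0.14 to -0.36 ± 0.14. Ifit3 read 0.730 to 3.24 CPM in female Pb (median 1.49) against 0.808 to 7.77 CPM (median 5.41), with -1.85 ± 0.57 becoming -1.34 ± 0.57. These were the 3 genes at an unadjusted p under 0.05 without female control 5, and none passed the adjustment. Ifit3 values under 2 CPM, a level chosen after the values were seen, occurred in every group, in 15 libraries of which 5 were female Pb.

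In female Mn the genes at an unadjusted p under 0.05 without female control 5 were Rtp4, at -0.60 ± 0.29, and Ifit2, at 0.85 ± 0.38, which lay in the opposite direction. In female Pb+Mn they were Oasl2, at 0.80 ± 0.20, and Parp14, at 0.48 ± 0.20 (log2, SE, edgeR adjusted p = 0.998 for both). Parp14 read 3.10 to 4.72 CPM in the 6 female Pb+Mn animals (median 3.46) and 2.36 to 3.09 CPM in the 5 remaining controls (median 2.63), so that these groups did not overlap, by a narrow margin. With female control 5 at 10.1 CPM included, its fold change was 0.03 on the log2 scale.

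In males, no listed gene was at an unadjusted p under 0.05 after Mn (2.25% of all genes) or Pb+Mn (2.93%), and the medians were 0.03 and 0.05. Male Pb had 2 of 33, both higher, against 12.5% of all genes, so the share among the listed genes was below that of all genes. In male Pb 28 of the 33 leaned higher (50.8% of all genes did), and the median over the list was 0.18. Markers of other kinds differed between the same groups: the median sum in male Pb and male control was 7591 and 5485 CPM for ribosomal protein genes, 1577 and 236.3 CPM for choroid plexus and ependyma, and 3.21 and 1.42 CPM for T and NK cells. Their ranges overlapped, and their part in the lean of the listed genes was not tested. Rsad2 read 0.552 to 2.10 CPM in male Pb (median 1.37) and 0.302 to 1.23 CPM in male controls (median 0.824), a log2 fold change of 0.78 ± 0.36 (SE, edgeR adjusted p = 0.382). Ifi27, a mitochondrial and nuclear membrane protein, read 18.2 to 35.1 CPM (median 29.8) against 14.2 to 30.7 CPM (median 18.1), with 0.48 ± 0.22 (adjusted p = 0.383). Both pairs of groups overlapped. Without male Pb 2 or without male control 5, none of the 33 remained at an unadjusted p under 0.05, and without male Pb 5 there were 5.

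The genes with the smallest p after male Mn were Tap1, at 0.49 ± 0.28, and Herc6, at 0.34 ± 0.21 (log2, SE, edgeR adjusted p = 0.9999 for both). After male Pb+Mn they were Parp14, at 0.37 ± 0.25, and Ifih1, at 0.31 ± 0.21 (edgeR adjusted p = 0.9965 for both). Tap1 ranged from 1.77 to 4.82 CPM in male Mn (median 2.74) and from 1.37 to 3.47 CPM in male controls (median 1.98). The high end of male Mn was a single library, male Mn 2, which is described further below.

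Comparisons of Pb+Mn with each metal alone do not use the levels of the controls. Their p-values still rest on a spread estimated from all 48 libraries, female control 5 included. In fits of only the groups compared, listed genes under 0.05 numbered 6 of 32 for females against Pb and 6 of 32 against Mn. For males they numbered 2 of 32 against Pb and 2 of 30 against Mn. The share of all genes in those smaller fits is not given here, so these counts are not read against one. The counts that follow, with their shares, are from the fit of all 48 libraries. Female Pb+Mn against female Pb had 4 of 33 at an unadjusted p under 0.05, all higher in Pb+Mn, against 3.83% of all genes. The median was 0.29, and 30 of 33 leaned higher. They were Ifih1, at 0.78 ± 0.23, Eif2ak2, at 0.42 ± 0.14, Oasl2, at 0.75 ± 0.30, and Psmb8, at 0.42 ± 0.19 (log2, SE, edgeR adjusted p = 0.948 for each). Ifih1 read 2.07 to 3.97 CPM in female Pb+Mn (median 2.99) against 1.26 to 2.29 CPM in female Pb, and 2 animals of each group lay where the ranges overlapped. Of the 39 other interferon-induced genes, 10 were at an unadjusted p under 0.05 in this comparison, all higher in Pb+Mn, and none passed the adjustment. That list holds Gbp4, Irgm2 and Tgtp2, which were highest of 48 libraries in a single animal of this group, female Pb+Mn 6. A count of the 39 without that animal is not given here. Leaving out 1 library at a time gave 3 to 8 listed genes, the highest without female Pb 6 (4.47% of all genes). Across these fits the share of all genes ran from 2.54% without female Pb+Mn 1 to 6.74% without female Pb 3.

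Female Pb+Mn against female Mn had 2 of 33, both higher (2.55% of all genes), with a median of 0.19. The count was 0 without female Mn 3 (2.1% of all genes), female Mn 4 (3.41%), female Pb+Mn 1 (1.96%) or female Pb+Mn 4 (2.06%). It was 3 without female Pb+Mn 2 (2.57%). The 2 genes in the fit of all libraries were Oasl2, at 0.64 ± 0.30, and Rsad2, at 0.81 ± 0.38 (edgeR adjusted p = 0.9999 for both). Male Pb+Mn against male Pb had 1 of 33 against 23.8% of all genes: Ifi35, at -0.58 ± 0.25 (edgeR adjusted p = 0.154). That count ran from 0 without male Pb 6 to 3 without male Pb 5. Male Pb+Mn against male Mn had none against 4.03% of all genes. Both shares of the listed genes were below those of all genes.

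The difference between sexes in the response was tested as an interaction, the female fold change minus the male one. For Pb, 14 of 33 were at an unadjusted p under 0.05, all lower in females, against 2.07% of all genes. The median was -0.66. DESeq2 counted 17, and a fit of only the groups compared counted 8 of 32, with no share of all genes given for either. In the fit of all groups the count was 8 without male Pb 2, and 9 without female Pb 3 or female Pb 5. Without female control 5 there were 2, Eif2ak2 at -0.46 ± 0.19 and Ifih1 at -0.59 ± 0.29, against 2.47% of all genes, and the median was -0.39. By score, 40.5% of this difference came from that animal, the smallest share of the comparisons that use it. For Mn (0.954% of all genes) and Pb+Mn (0.789%) no listed gene was at an unadjusted p under 0.05 in edgeR, and DESeq2 had 1 and 0. Leaving out 1 library at a time gave up to 4 for Mn (without female control 2) and up to 2 for Pb+Mn (without male control 3 or female Pb+Mn 1). The shares from female control 5 there were 70.2% and 119%.

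Female against male controls had 6 of 33 at an unadjusted p under 0.05, all higher in females, against 1.31% of all genes. DESeq2 counted 12, and a fit of only the groups compared counted 2 of 31, with no share of all genes given for either. In the fit of all groups the count was 2 without male control 5, 10 without male control 3, and 11 without female control 1, 2 or 4. Irf7 led them at 1.42 ± 0.46, with Usp18 at 0.99 ± 0.41 (log2, SE, edgeR adjusted p = 1). Without female control 5 no listed gene was left (2% of all genes), Irf7 stood at 0.37 ± 0.35, and the median went from 0.34 to 0.04. By score, 77% of the sex difference among controls came from this animal.

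B2m in Pb animals lay on opposite sides of the control means in the 2 sexes, but not of the control medians once female control 5 was left out. All 6 male Pb values, 63.8 to 74.4 CPM (median 67.9), lay above the male control mean of 60.6 CPM, although male controls reached 68.3 CPM. All 6 female Pb values, 54.5 to 65.4 CPM (median 58.0), lay below the female control mean of 69.7 CPM. Without female control 5 that mean was 63.7 CPM and 4 of 6 lay below it, while the control median became 57.3 CPM, under the median of female Pb. The interaction for B2m was -0.40 ± 0.16 with all controls and -0.27 ± 0.14 without female control 5 (log2, SE, edgeR adjusted p = 0.990 and 0.961).

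A second pattern concerned 2 exposed animals, female Pb+Mn 6 and male Mn 2, and genes named after their values were seen. Guanylate-binding proteins (GBPs) and immunity-related GTPases (IRGs) attack the vacuoles of intracellular pathogens. Of 13 such genes read, the 3 highest libraries were female control 5, female Pb+Mn 6 and male Mn 2 for 8. Gbp4 read 20.3 CPM in female Pb+Mn 6 (256 counts) and 9.40 CPM in male Mn 2, against 0.244 to 2.60 CPM in the 45 libraries other than these 3. Tgtp2 read 5.40 and 4.74 CPM against 0 to 1.18 CPM, and Irgm2 9.05 and 7.31 CPM against 1.31 to 3.27 CPM. Both animals stood clear of the 45 for these genes.

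Most antiviral genes of the list did not stand apart in these animals. Irf7 read 1.43 CPM in female Pb+Mn 6 and 2.49 CPM in male Mn 2, within the range of the 45. Usp18 read 0.715 and 0.321 CPM, and Isg15 1.19 and 1.53 CPM, also within it. Exceptions were Ifi44, at 0.953 and 1.12 CPM against at most 0.937 CPM, and Sp100, at 4.37 and 3.695 CPM against at most 3.686 CPM. Ifih1 stood above the 45 in female Pb+Mn 6 alone, and Oas1a and Oas2 in male Mn 2 alone. For antigen presentation the class score was 0.59 in female Pb+Mn 6 and 0.57 in male Mn 2, the highest after female control 5, while their scores over all 33 genes were 0.18 and 0.27. H2-K1 read 32.9 and 31.4 CPM against at most 29.6 CPM in the 45, and Tap1 5.08 and 4.82 CPM against at most 4.33 CPM. Nlrc5, the transactivator of class I genes, read 2.14 and 1.85 CPM against at most 0.857 CPM, whereas female control 5 read 0.230 CPM (2 counts).

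Female control 5 thus carried both sets, with Gbp4 at 6.45 CPM and Irgm2 at 5.99 CPM, but not Nlrc5, and Tgtp2 at 0.922 CPM lay within the range of the 45. T and NK cell markers summed to 1.59 CPM in female Pb+Mn 6 and 2.65 CPM in male Mn 2, and microglia markers to 524.8 and 432.7 CPM, all inside the range of the other libraries. Their part in the pattern was not tested. The 2 exposed animals came from different groups and sexes, and in neither group did a second animal reach the levels given for Gbp4, Tgtp2 or Irgm2.

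**Figure D4:**
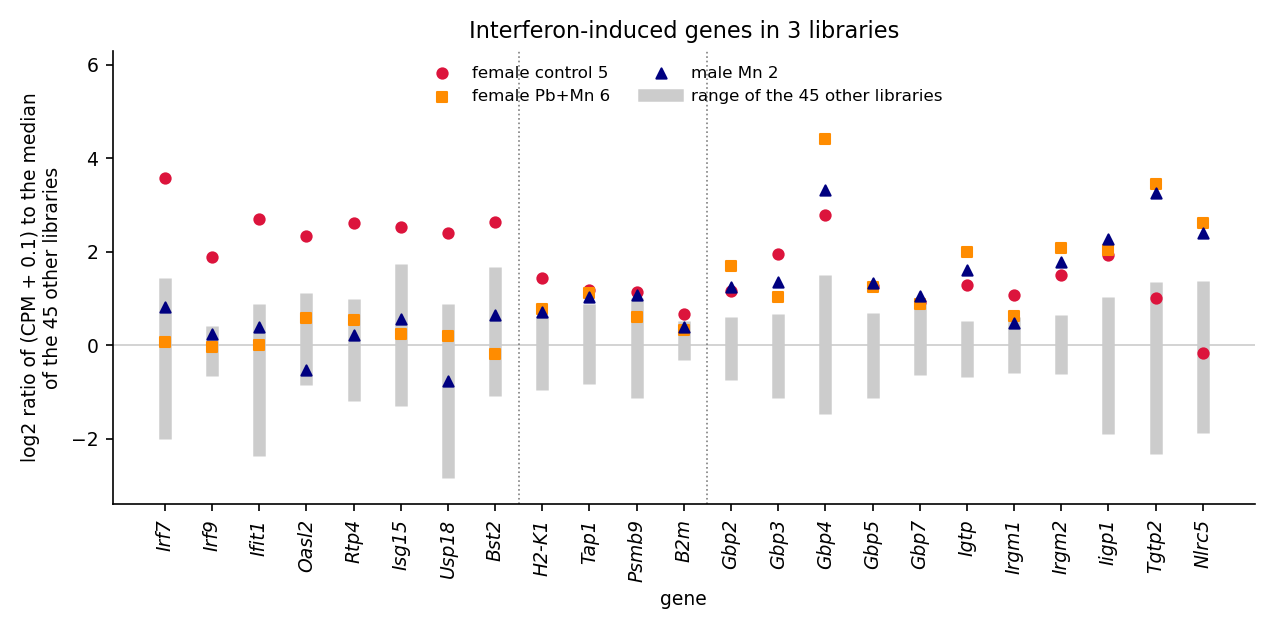
Log2 ratio of CPM plus 0.1 to the median of the 45 other libraries (y axis) for antiviral genes (left block), class I presentation genes (middle) and GBP, IRG and Nlrc5 genes (right) in 3 libraries, with the range of the 45 as grey bars. Female control 5 is high in nearly all, while female Pb+Mn 6 and male Mn 2 stand out in the right block, with Gbp4 at 20.3 and 9.40 CPM.

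Some listed genes had animals set apart in several groups. Xaf1, a pro-apoptotic factor, lay between 5.64 and 7.07 CPM in 10 libraries and between 1.07 and 4.49 CPM in the other 38. The 10 came from 6 groups, at most 2 from each, and their scores ran from -0.33 to 0.43. Ifit2, a relative of Ifit1, lay between 13.1 and 21.1 CPM in 10 libraries from 7 groups and between 3.02 and 11.2 CPM in the rest. H2-D1 lay between 22.1 and 29.9 CPM in 7 libraries, 1 from each group except male Mn, and between 38.0 and 128.1 CPM in the other 41. The scores of those 7 ran from -0.48 to 0.06. Ifit3 lay under 2 CPM in 15 libraries, of which 5 were female Pb, 3 male Pb and 2 female Mn, with 1 in each other group. The dividing levels were chosen after the values were seen.

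**Figure D5:**
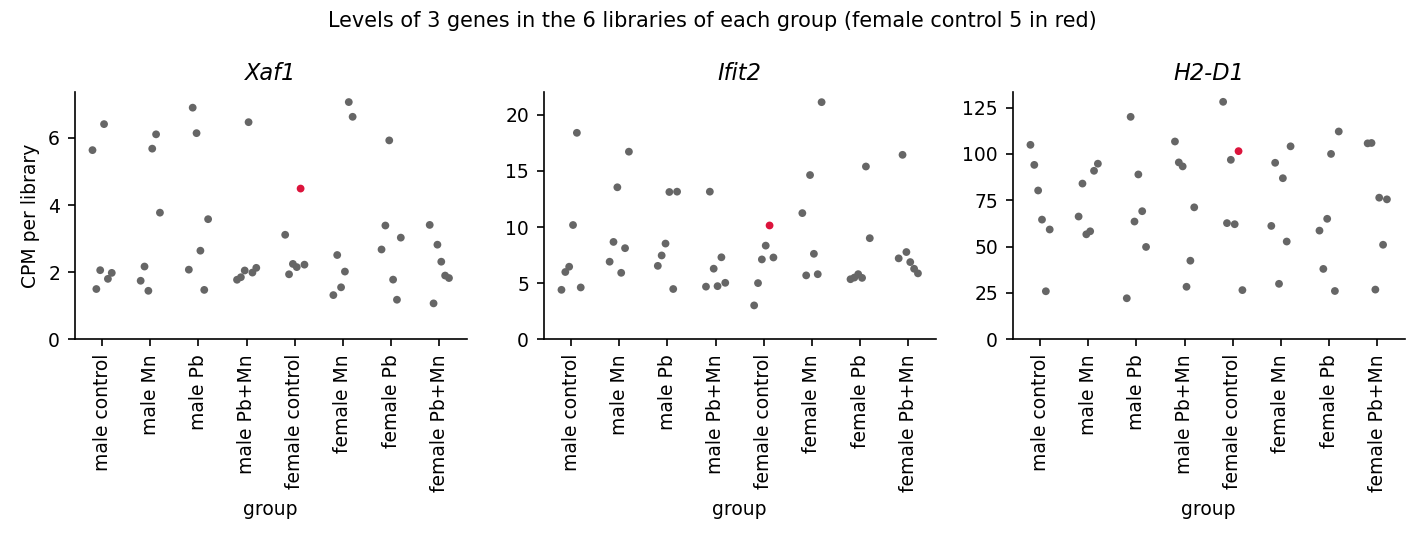
CPM of Xaf1, Ifit2 and H2-D1 (y axes, from 0) in the 6 libraries of each group (x axis), with female control 5 in red. High Xaf1 and Ifit2 values occur in 1 or 2 animals of most groups and low H2-D1 values in 1 animal of 7 groups, and female control 5 is not the highest for any of the 3.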

How the data were processed

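Hippocampal poly(A) RNA from 48 mice was sequenced with a stranded kit, per the labels' protocols. The values are read counts per gene, deposited by the authors as whole numbers without scaling. The submitters' processing notes name build GRCm39, STAR 2.7.10b, limma, edgeR, R 4.4.2, featureCounts 2.0.6 and Trim Galore 0.6.9; strand and multi-mapping settings are not given in the sources used here. Of 57126 identifiers, 51884 matched a symbol and held 99.52% of counts.

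Groups came from the labels. Here, 1 edgeR 4.0.16 quasi-likelihood fit (R 4.3.3) covered 48 libraries, with TMM scaling and edgeR's default filter on low counts (16360 genes kept), and Benjamini-Hochberg adjustment at 0.05 over all of them. The script was tested on simulated data. The score used log2 CPM with a prior count of 2. Depth was 6273586 to 27639841 counts per library, so genes under 1 CPM rest on few counts.

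The members and gene lists were chosen with earlier results of these data known. Values by group are given for the 10 tested genes of highest variance, for Irf7, Irf9, Stat2, B2m, H2-K1 and H2-D1, and for the 2 smallest p-values per exposure; other genes were named after their values were seen. Promoters are shown for the most variable genes with a match. Alternatives were other size factors (RLE), no filter, DESeq2 1.42.0, robust empirical Bayes, only the groups compared, a replicate block and leaving out each library. One gene outside the list is not reported here.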

Additional observations from a re-analysis of the deposited data

Results flagged for a closer look

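Single animals far from the other 5 of their group were sought in 176 sets of values. The measure was the gap to the nearest animal as a share of the group's range. Chance marks about 1 group in 20 for normally distributed values. The rate for the genes, whose CPM were used here without a log scale, is not known. The genes were also chosen partly for variance or small p, which female control 5 itself raises, so its 13 of the 19 are a description and no test of that animal. It was high in its score (gap 0.775), Irf7 (0.823), Ifi44 (0.892), Bst2 (0.838), Usp18 (0.838), Ifit1 (0.881), Isg15 (0.790), Irf9 (0.919), H2-K1 (0.787), Tap1 (0.676), Parp14 (0.906), Ifih1 (0.777) and Rtp4 (0.783).

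The others were Xaf1 in male Pb+Mn 4 at 6.47 CPM beside 2.13 CPM (0.924), B2m in male Mn 2 at 81.8 CPM beside 62.0 CPM (0.732), B2m in female Pb+Mn 6 at 78.2 CPM beside 66.9 CPM (0.636) and Ifi27 in female Pb 2 at 35.5 CPM beside 22.5 CPM (0.638). On the low side were Ifit1 in female Pb+Mn 2 at 0.429 CPM beside 1.24 CPM (0.634) and Stat2 in female Pb+Mn 5 at 15.7 CPM beside 18.8 CPM (0.637).

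B2m in the Pb animals of the 2 sexes lay on opposite sides of the control means, by 7.91 CPM in males and -10.4 CPM in females, a difference of 18.3 CPM. Without female control 5 the female value was -4.31 CPM. In the edgeR interaction it did not pass the adjustment.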

How the results depend on the processing

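No listed gene passed the adjusted threshold under any alternative. Of the main values, 571 were marked the same and 8 moved. The 571 include the counts of genes passing, which were 0 throughout and were not set against any spread. Only the median log2 fold changes and the score of female control 5 were set against the SD of 0.193 within groups. That score is 1 of the 8 that moved. Leaving out 1 library at a time, the median log2 fold change ranged from -0.359 to -0.011 in female Mn, -0.544 to -0.122 in female Pb, -0.234 to 0.180 in female Pb+Mn and 0.042 to 0.430 in female against male controls. For the sex interactions it ranged from -0.495 to -0.105 (Mn), -0.737 to -0.393 (Pb) and -0.283 to 0.093 (Pb+Mn). In each of these 7 the end with the smallest or turned value was the fit without female control 5. Irf7 in female Pb+Mn against control changed sign there, from -0.97 to 0.096 (range -1.245 to 0.096). With the median over genes in place of the mean, female control 5 scored 1.201.

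Whether replicate numbers pair the animals was not settled. Deviations of same-numbered libraries had a median correlation of 0.028 (lowest -0.379), against -0.007 for different numbers. Of the 48 libraries, 16 correlated best with their own number, more than an even spread over the 6 numbers would give. With the replicate block the medians were -0.275, -0.396 and -0.168 in female Mn, Pb and Pb+Mn, and 0 genes passed. Low counts limit genes such as Ifi44, Usp18 and Zbp1.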
